A study of Mus musculus with 6 samples.

Results

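The B7 family and its companion checkpoint ligands were examined in macrophages sorted from the cerebrospinal fluid of tumor-bearing mice, a model of metastasis to the leptomeninges. The set held 10 genes, Cd80, Cd86, Cd274, Pdcd1lg2, Icosl, Vsir, Havcr2, Lgals9, Pvr and Nectin2, picked by symbol from the 34652 genes of the deposited expression table. The table holds 8 of them under the current symbol and 2 under an older one, 4632428N05Rik for Vsir and Pvrl2 for Nectin2.

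Bulk RNA-seq was available for 3 libraries of dLAM, the sorted resident macrophages, and 3 libraries of monocyte-macrophages. Both came from the same model: Cx3cr1CreER:mTmG mice, treated with tamoxifen and inoculated with LLC-LeptoM cells, with the fluid collected on day 12. In these mice tamoxifen lets a Cre recombinase driven from the Cx3cr1 locus switch on green fluorescent protein (GFP) in cells that express Cx3cr1 at that time, and microglia, monocytes and some other immune cells also use this locus. LLC-LeptoM is a Lewis lung carcinoma line selected for growth in the leptomeninges. The dLAM gate was CD45+CD11b+F4/80+Ly6C-GFP+. The monocyte-macrophage sample joined 2 GFP- gates, CD45+CD11b+F4/80+ cells and CD45+CD11b+F4/80low Ly6C+ cells, so its values are averages over both. All groups carried the tumor and had received tamoxifen, so no comparison with healthy fluid can be made. The sources used here do not give the age or sex of the mice, how many were pooled for a library, or whether each library of a group had its own mice. The p-values therefore stand against a spread that may be partly technical.

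A T cell needs a signal beside the one from its antigen receptor, and the B7 family on antigen-presenting cells supplies or withholds it. CD80 and CD86 engage CD28 to activate the T cell and CTLA-4 to restrain it, ICOS ligand engages ICOS, and PD-L1 (Cd274) and PD-L2 (Pdcd1lg2) engage the inhibitory receptor PD-1. VISTA (Vsir) is an inhibitory family member that is abundant on myeloid cells, galectin-9 (Lgals9) is a ligand of the TIM-3 receptor (Havcr2), and Pvr and Nectin2 are adhesion proteins read by an activating receptor, CD226; Pvr is also bound by the inhibitory receptor TIGIT.

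The 10 genes lie on 5 mouse chromosomes, 2 on each (mm10, GENCODE M21 gene bounds). Cd274 (chr19:29367455-29388095) and Pdcd1lg2 (chr19:29410919-29471161) follow each other on the plus strand. Cd80 (chr16:38455561-38496335, plus strand) and Cd86 (chr16:36603869-36666081, minus strand) share chromosome 16. Pvr (chr7:19903578-19921160) and Nectin2 (chr7:19716644-19750483) are both on the minus strand of chromosome 7. Icosl (chr10:78069302-78083913) and Vsir (chr10:60346851-60372684) are on the plus strand of chromosome 10, and Havcr2 (chr11:46454935-46481255, plus strand) and Lgals9 (chr11:78962974-78984946, minus strand) on chromosome 11. Exons of Cd274 share 511 bp, or 14.1% of its exon length, with a gene on the opposite strand, AC119228.1, and exons of Nectin2 share 135 bp, or 3.86%, with the antisense gene Gm20512. The sources used here do not say whether reads were counted by strand, so reads over those bases cannot be assigned. Gm20512 stood between 0 and 0.131 FPKM in the 6 libraries.

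The bases just before the start of 3 members are shown: the neighbouring PD-1 ligand genes, which were both higher in dLAM, and Vsir, which was lower. They are the 250 bases before the transcription start in RefSeq (build GRCm38.p6), chr19:29367188-29367437 (plus strand) for Cd274, chr19:29410669-29410918 (plus strand) for Pdcd1lg2 and chr10:60346601-60346850 (plus strand) for Vsir. Capitals mark a match to the NF-kB-like pattern described after the sequences.
Cd274: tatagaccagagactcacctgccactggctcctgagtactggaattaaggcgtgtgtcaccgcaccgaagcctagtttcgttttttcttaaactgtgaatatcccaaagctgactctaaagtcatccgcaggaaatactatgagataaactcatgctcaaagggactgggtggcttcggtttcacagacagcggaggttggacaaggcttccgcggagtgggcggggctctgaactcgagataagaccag
Pdcd1lg2: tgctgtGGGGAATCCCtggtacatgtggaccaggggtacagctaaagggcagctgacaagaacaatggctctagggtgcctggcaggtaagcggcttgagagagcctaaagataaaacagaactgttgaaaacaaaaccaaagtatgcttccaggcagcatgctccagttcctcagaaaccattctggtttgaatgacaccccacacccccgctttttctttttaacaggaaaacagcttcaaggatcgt
Vsir: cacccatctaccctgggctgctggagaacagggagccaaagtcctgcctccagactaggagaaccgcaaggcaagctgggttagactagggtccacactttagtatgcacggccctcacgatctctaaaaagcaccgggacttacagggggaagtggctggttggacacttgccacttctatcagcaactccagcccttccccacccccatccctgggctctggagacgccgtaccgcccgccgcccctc
RefSeq gave such a window for 8 of the 10 members, all but Cd86 and Pvr. A set of 3 loose patterns was searched on both strands in each window. The first, TTCNNNGAA, resembles a site that responds to interferon gamma; it was in none of the 8 windows, and 7.04% of all 32536 promoter windows of this length hold it. The second resembles the site of interferon regulatory factors and reads GAAA, any 2 bases, then GAAA; Lgals9 alone among the 8 held it, at bases -55 to -46 from the start, and 2.98% of all windows do. The third resembles the NF-kB site and reads GGG, any 5 bases, then CC; 46% of all windows hold it. Pdcd1lg2 had 1 such match, GGGGAATCCC at bases -244 to -235, and Cd80 and Icosl had 2 each, Nectin2 had 3 and Lgals9 had 1. Cd274, Vsir and Havcr2 had none. No matches overlapped in the printed sequences. These are matches of letters in a short window, not binding sites. The share of G and C was 50.4% for Cd274, 48.4% for Pdcd1lg2 and 60.4% for Vsir, against a median of 52.4% over all windows.

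Values are FPKM, fragments scaled by gene length and library total, as deposited by the authors. Depth, estimated from the smallest steps in the values, was 1.23e+07 to 1.48e+07 fragments in the dLAM libraries and 1.37e+07 to 1.70e+07 in the monocyte-macrophage libraries. Differences were tested with limma on log2(FPKM + 1) over 11317 genes with at least 1 FPKM in at least 3 of the 6 libraries, with Benjamini-Hochberg adjustment over all of them and a threshold of 0.05. A log2 fold change is dLAM minus monocyte-macrophage. Pan-leukocyte Ptprc stood at 46.4 to 47.5 FPKM in dLAM and 53.1 to 54.1 FPKM in monocyte-macrophages. Csf1r, the receptor for the macrophage growth factor, stood at 219 to 276 FPKM in dLAM and 104 to 147 FPKM in monocyte-macrophages. Itgam, which encodes the sorted CD11b, was low in both, at 1.96 to 2.24 FPKM in dLAM and 2.60 to 3.12 FPKM in monocyte-macrophages. Of the marker lists, 8 of 9 tested border macrophage genes and 8 of 8 microglia genes were higher in dLAM, of which 4 border macrophage and 5 microglia genes passed the low-value filter through dLAM only. The ninth border macrophage gene, F13a1, was lower, at 136 to 182 FPKM in dLAM and 741 to 904 FPKM in monocyte-macrophages, and with it the summed list was 363 to 415 FPKM in dLAM and 753 to 930 FPKM in monocyte-macrophages. The microglia list summed to 260 to 459 FPKM in dLAM and 62.3 to 84.3 FPKM in monocyte-macrophages. Of the classical monocyte genes, 10 of 10 were lower (summed FPKM 797 to 1061 in dLAM and 3782 to 5300 in monocyte-macrophages). Genes of other cell types moved with the groups too. All 20 T cell genes were higher in dLAM (summed FPKM 276 to 350, against 9.60 to 46.2 in monocyte-macrophages; Cd3e 35.3 to 42.5, against 1.17 to 5.20), and so were 13 of 14 tested genes of mature dendritic cells (357 to 460, against 39.2 to 47.8; Ccr7 19.9 to 30.8, against 0.148 to 0.683). Of these, 6 T cell and 5 mature dendritic cell genes passed the low-value filter through dLAM only. Also higher were 10 of 12 conventional dendritic cell genes (194 to 281, against 90.4 to 117), 3 of 4 tested plasmacytoid dendritic cell genes, 4 of 4 tested natural killer cell genes (15.8 to 26.4, against 1.93 to 4.22), 4 of 5 tested B and plasma cell genes, and 5 of 6 tested genes of mast cells, basophils and eosinophils (35.8 to 85.9, against 1.92 to 3.70). Through dLAM alone, 5, 2, 2, 1 and 4 of these passed the filter, in the order given. Of 11 neutrophil genes, 5 were lower in dLAM (1317 to 1701, against 2033 to 1.2e+04). All 3 tested carcinoma genes were higher in dLAM (the list of 8 summed to 27.0 to 31.9 FPKM, against 1.99 to 3.18 in monocyte-macrophages), with log2 fold changes of 3.08 for Cdh1, 2.58 for Epcam and 0.85 for Krt18, and 2 of the 3 passed the filter through dLAM only. The carcinoma keratins Krt8 and Krt19 did not exceed 0.491 FPKM in any library. For comparison, 19.9% of all tested genes were called higher in dLAM and 10.6% lower. In a bulk sample, a larger share of cells of one type and more RNA per cell cannot be told apart.

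Libraries of 1 group also differed among themselves. Y-linked Ddx3y stood at 2.22, 2.10 and 10.1 FPKM in dLAM libraries 1, 2 and 3 and at 1.56, 10.6 and 2.69 FPKM in monocyte-macrophage libraries 1, 2 and 3. Thus dLAM library 3 and monocyte-macrophage library 2 carried more Y-linked RNA than the other 4 libraries. X-linked Xist ran the other way, at 10.5 FPKM in dLAM library 3 and 10.6 FPKM in monocyte-macrophage library 2. In the other 4 libraries it stood at 40.3 to 58.2 FPKM. For Cd274, Pdcd1lg2, Cd86 and Havcr2 the value without dLAM library 3 and monocyte-macrophage library 2 is given beside the result. That comparison leaves 2 libraries in each group and was chosen after seeing the data.

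All 10 members were tested. In dLAM, 4 were higher (Cd274, Pdcd1lg2, Icosl and Nectin2), 1 was lower (Vsir) and 5 did not pass (Cd80, Cd86, Havcr2, Lgals9 and Pvr). Over all tested genes 19.9% were called higher and 10.6% lower. The same 4 members had all dLAM libraries above all monocyte-macrophage libraries, which held for 29.3% of tested genes, and Vsir had all dLAM libraries below, which held for 16.9%. The median log2 fold change was 0.46 over the members and 0.06 over all tested genes. Pdcd1lg2 was the one member that passed the low-value filter through the dLAM libraries only, so its place among the tested genes already required a difference. Summed over the 10 genes, Havcr2 included, RNA was 228, 225 and 261 FPKM in dLAM and 199, 212 and 198 FPKM in monocyte-macrophages. Every dLAM total was above every monocyte-macrophage total as deposited, the nearest being 225 and 212 FPKM. The totals were not compared under other scalings.

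**Figure D1:**
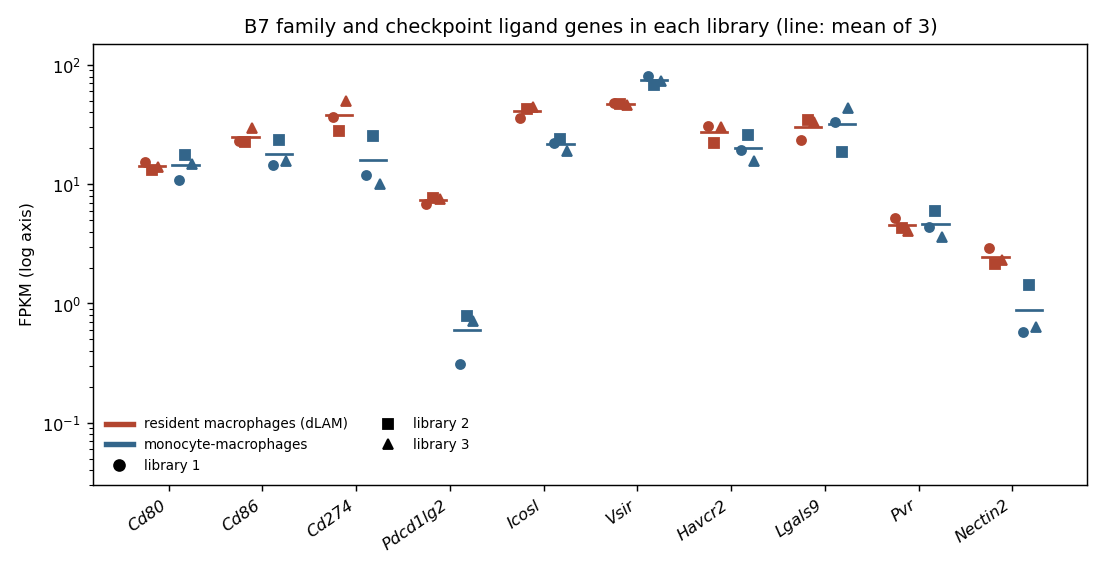
FPKM on a log axis for each of the 10 genes, with dLAM libraries in red left of monocyte-macrophage libraries in blue; the marker shape gives the library number and the line the mean of 3. Pdcd1lg2, Cd274, Icosl and Nectin2 have all red points above all blue points, Vsir has all red points below, and the other genes overlap.

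The ligands of PD-1 were higher in dLAM. Cd274, which encodes PD-L1, stood at 36.6, 27.9 and 49.9 FPKM in the dLAM libraries and at 11.9, 25.5 and 10.1 FPKM in the monocyte-macrophage libraries. Every dLAM library was above every monocyte-macrophage library, but dLAM library 2 and monocyte-macrophage library 2 came close to each other. The means were 38.2 ± 11.1 FPKM in dLAM and 15.8 ± 8.41 FPKM in monocyte-macrophages (SD, n = 3 each), and the log2 fold change was 1.29 with a standard error of 0.34 and a 95% interval from 0.49 to 2.09 (adjusted p = 0.025, limma). The spread within groups, 0.55 on the log2 scale, was larger than that of 96.6% of the tested genes. The highest value in each group came from the library with more Y-linked RNA. In the 4 other libraries alone, a choice made after seeing the data that drops those highest values, the log2 fold change was 1.46 (adjusted p = 0.0057, limma). The call depended on single libraries: leaving out dLAM library 1 gave an adjusted p of 0.073 and leaving out dLAM library 3 one of 0.083 (limma). Leaving out monocyte-macrophage library 1 gave 0.067, and doing so for number 3 of that group gave 0.076. It was also lost with no filter on low values, at an adjusted p of 0.061 (limma).

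Pdcd1lg2, which encodes PD-L2, the second PD-1 ligand and one with a narrower distribution than PD-L1, differed most among the members. It stood at 6.82, 7.61 and 7.59 FPKM in dLAM and at 0.311, 0.778 and 0.714 FPKM in monocyte-macrophages. The dLAM values were tightly grouped and far above the others, and the estimated reads behind them were 184 to 198 fragments in dLAM and 8.3 to 23.8 fragments in monocyte-macrophages. The ratio of the means was 12.2, and the log2 fold change of 2.39 ± 0.15 (standard error; adjusted p = 5.5e-05, limma) ranked 165 by size among the tested genes. Pdcd1lg2 entered that ranking through the dLAM libraries only. Without the low-value filter its adjusted p was 0.00072 (limma). With a pseudocount of 0.1 FPKM in place of 1 FPKM the log2 fold change was 3.48. In the 4 libraries low in Y-linked RNA it was 2.45 with the usual pseudocount (adjusted p = 0.0022, limma).

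Within a library, Pdcd1lg2 made up 15.7%, 21.4% and 13.2% of the FPKM of the PD-1 ligands together in dLAM and 2.54%, 2.96% and 6.60% in monocyte-macrophages. The ratio of Pdcd1lg2 to Cd274 was thus 5.16 times as high in dLAM, with no overlap of the groups; the log2 difference of 2.37 became 1.10 with 1 FPKM added to each value. PD-L1 RNA remained the larger part in all 6 libraries. Together the PD-1 ligand genes gave 43.4, 35.5 and 57.5 FPKM in dLAM and 12.2, 26.3 and 10.8 FPKM in monocyte-macrophages. Mature dendritic cells are known to express both ligands; the summed genes of that cell type, given above, were higher in the same libraries, and their part in the PD-1 ligand values was not tested.

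**Figure D2:**
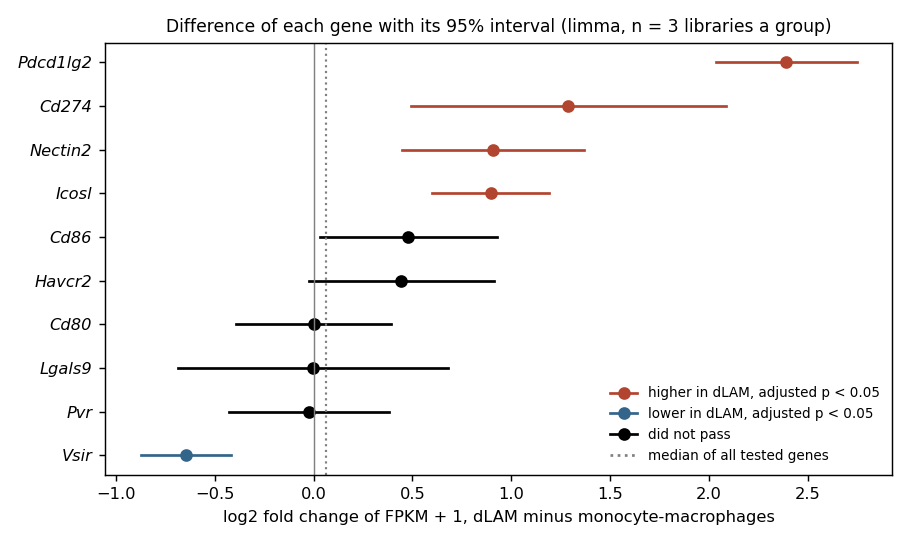
Log2 fold change of FPKM + 1, dLAM minus monocyte-macrophage, with its 95% interval from limma for each gene, sorted by size; the dotted line is the median of all tested genes, 0.06. Pdcd1lg2 stands apart at 2.39, the wide interval of Cd274 runs from 0.49 to 2.09, and Vsir is the one gene whose interval lies below 0.

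Among the ligands of CD28, CTLA-4 and ICOS, Icosl was higher in dLAM and Cd80 and Cd86 did not pass. Icosl encodes the ICOS ligand, which costimulates activated T cells. It stood at 36.2, 43.1 and 44.5 FPKM in dLAM and at 22.1, 24.2 and 18.9 FPKM in monocyte-macrophages. The groups were well apart, with means of 41.3 ± 4.43 FPKM in dLAM and 21.7 ± 2.62 FPKM in monocyte-macrophages (SD, n = 3 each). The log2 fold change was 0.90 with a 95% interval from 0.60 to 1.19 (adjusted p = 0.0016, limma).

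Cd86, the B7-2 costimulatory ligand, stood at 23.1, 22.6 and 29.6 FPKM in dLAM and at 14.5, 23.6 and 15.7 FPKM in monocyte-macrophages. Monocyte-macrophage library 2 lay within the dLAM range, and the other monocyte-macrophage libraries lay below it. The log2 fold change was 0.48 with a 95% interval from 0.03 to 0.93, and it did not pass after adjustment (adjusted p = 0.101, limma). Without monocyte-macrophage library 2 it was 0.68 (adjusted p = 0.014, limma), and in the 4 libraries low in Y-linked RNA it was 0.56 (adjusted p = 0.027, limma).

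Cd80, the B7-1 ligand, stood at 15.3, 13.1 and 14.0 FPKM in dLAM and at 10.8, 17.4 and 14.9 FPKM in monocyte-macrophages. The monocyte-macrophage values spread to both sides of the dLAM values. The log2 fold change was 0.00 with a 95% interval from -0.39 to 0.39, which leaves room for a difference of that size in either direction. The ratio of Cd86 to Cd80 within a library was 1.51, 1.72 and 2.11 in dLAM and 1.35, 1.35 and 1.06 in monocyte-macrophages, which did not overlap. The ratio of Cd274 to Cd80 was 2.40, 2.13 and 3.56 in dLAM and 1.11, 1.46 and 0.679 in monocyte-macrophages, also with no overlap. Cd274 RNA thus exceeded Cd80 RNA per length in all dLAM libraries and in monocyte-macrophage libraries 1 and 2, and was below it in monocyte-macrophage library 3.

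Vsir was the one member lower in dLAM. It encodes VISTA, which is abundant on monocytes and neutrophils. It stood at 47.7, 47.5 and 46.2 FPKM in dLAM and at 81.3, 68.1 and 74.0 FPKM in monocyte-macrophages. The dLAM values were nearly equal to each other and all below the monocyte-macrophage values. The means were 47.1 ± 0.811 FPKM in dLAM and 74.5 ± 6.61 FPKM in monocyte-macrophages (SD, n = 3 each), and the log2 fold change was -0.65 with a 95% interval from -0.87 to -0.42 (adjusted p = 0.0023, limma). Its spread within groups was larger than that of only 12.3% of the tested genes. Vsir made up 20.9%, 21.1% and 17.7% of the summed FPKM of the 10 genes in dLAM and 40.9%, 32.2% and 37.5% in monocyte-macrophages. Summed classical monocyte and neutrophil genes, given above, were also higher in the monocyte-macrophage libraries, and their part in the Vsir difference was not tested.

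**Figure D3:**
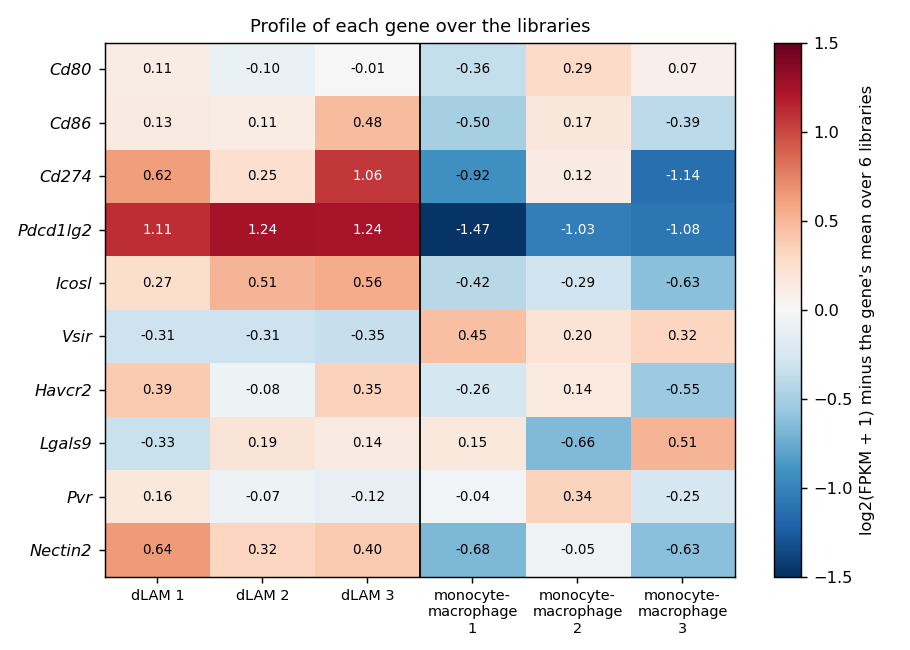
Each cell gives log2(FPKM + 1) of a gene in a library minus that gene's mean over the 6 libraries, with dLAM libraries left of monocyte-macrophage libraries. Red cells fill the dLAM side for Cd274, Pdcd1lg2, Icosl and Nectin2 and blue cells for Vsir; monocyte-macrophage library 2 is the least negative or most positive of its group for 8 genes and the lowest for Vsir and Lgals9.

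TIM-3 and its ligand galectin-9 did not pass. Havcr2, which encodes TIM-3 and is a receptor on myeloid cells as well as on exhausted T cells, stood at 31.0, 22.1 and 29.9 FPKM in dLAM and at 19.3, 25.9 and 15.6 FPKM in monocyte-macrophages. The groups overlapped through dLAM library 2 and monocyte-macrophage library 2. The log2 fold change was 0.44 with a 95% interval from -0.02 to 0.91 (adjusted p = 0.138, limma); without monocyte-macrophage library 2 it was 0.63 (adjusted p = 0.038, limma). In the 4 libraries low in Y-linked RNA it was 0.56 and did not pass (adjusted p = 0.114, limma).

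Lgals9, a secreted lectin, stood at 23.7, 34.5 and 33.3 FPKM in dLAM and at 33.6, 18.7 and 43.2 FPKM in monocyte-macrophages. Monocyte-macrophage libraries 2 and 3 held the lowest and the highest of the 6 values. The interval of the log2 fold change was wide, from -0.68 to 0.68, and the spread within groups exceeded that of 94.1% of the tested genes. The ratio of Lgals9 to Havcr2 was 0.763, 1.56 and 1.11 in dLAM and 1.74, 0.721 and 2.76 in monocyte-macrophages, so the groups overlapped (log2 difference -0.46, two-sided exact permutation p = 0.5).

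The CD226 ligands had the lowest levels of the set beside Pdcd1lg2. Nectin2, a cell adhesion protein, stood at 2.93, 2.15 and 2.32 FPKM in dLAM and at 0.573, 1.43 and 0.632 FPKM in monocyte-macrophages. All dLAM values were above the monocyte-macrophage values, of which library 2 was the highest. The log2 fold change was 0.91 with a 95% interval from 0.45 to 1.37 (adjusted p = 0.012, limma), and 1.48 with a pseudocount of 0.1 FPKM. Between 92.5 and 151 estimated fragments in dLAM and between 27.4 and 70.1 in monocyte-macrophages lay behind these values.

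Pvr, the poliovirus receptor homologue, stood at 5.18, 4.27 and 4.08 FPKM in dLAM and at 4.37, 5.99 and 3.64 FPKM in monocyte-macrophages. The groups overlapped, and the interval of the log2 fold change ran from -0.43 to 0.38 (adjusted p = 0.937, limma). The ratio of Nectin2 to Pvr was 0.565, 0.503 and 0.568 in dLAM and 0.131, 0.238 and 0.174 in monocyte-macrophages, 3.10 times as high in dLAM; the log2 difference of 1.63 became 0.93 with 1 FPKM added to each value. Pvr RNA was the more abundant of this pair in every library.

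In all, 5 ratios were compared. For Pdcd1lg2 to Cd274, Cd86 to Cd80, Cd274 to Cd80 and Nectin2 to Pvr the log2 differences were 2.37, 0.50, 1.35 and 1.63. Each reached a two-sided exact permutation p of 0.1, which is the smallest that 3 against 3 libraries can give, and 0.125 after Benjamini-Hochberg adjustment over the 5, so none could pass the threshold.

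**Figure D4:**
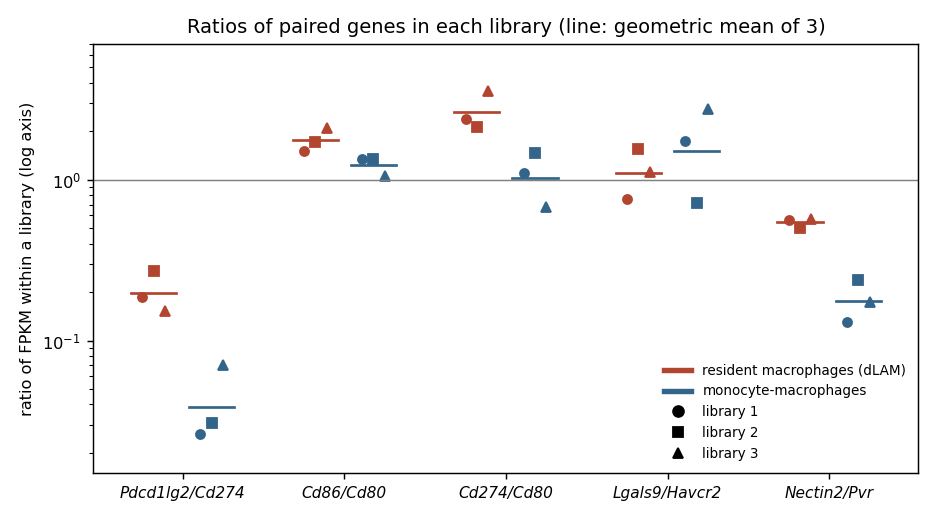
Ratio of the FPKM of paired genes within each library, on a log axis, with dLAM in red left of monocyte-macrophages in blue and the line at the geometric mean of 3. Groups do not overlap for Pdcd1lg2/Cd274, Cd86/Cd80, Cd274/Cd80 and Nectin2/Pvr and overlap for Lgals9/Havcr2.

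The order of levels differed between the groups. In dLAM the mean FPKM ran from Vsir (47.1) through Icosl (41.3), Cd274 (38.2), Lgals9 (30.5), Havcr2 (27.7), Cd86 (25.1), Cd80 (14.1), Pdcd1lg2 (7.34) and Pvr (4.51) to Nectin2 (2.47). From Icosl to Cd86 each gene's range overlapped that of the next, and Cd274 in dLAM library 3 was above every Vsir value there. In monocyte-macrophages the order was Vsir (74.5), Lgals9 (31.8), Icosl (21.7), Havcr2 (20.3), Cd86 (18.0), Cd274 (15.8), Cd80 (14.4), Pvr (4.66), Nectin2 (0.877) and Pdcd1lg2 (0.601). There the ranges of neighbours were apart between Vsir and Lgals9, between Cd80 and Pvr and between Pvr and Nectin2, and overlapped elsewhere. Vsir led in both groups. Cd274 stood above Lgals9, Havcr2 and Cd86 by its mean in dLAM and below all of them in monocyte-macrophages. Pdcd1lg2 stood above Pvr and Nectin2 in dLAM and below both in monocyte-macrophages.

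The members shared a pattern among the monocyte-macrophage libraries. Library 2 was the highest of the 3 for 8 members, which held for 38.3% of the tested genes, and the lowest for the other two, Vsir and Lgals9, which held for 30.2%. It was the monocyte-macrophage library with more Y-linked RNA, and the part of that difference in the pattern was not tested. The dLAM library with more Y-linked RNA, number 3, was the highest of its group for Cd86, Cd274 and Icosl and for no other member.

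For each member that passed, the 3 tested genes with the nearest values were found by the root mean square difference of log2(FPKM + 1) profiles, centred on each gene's mean, over the 6 libraries. For Pdcd1lg2 they were Rnf180 (0.0897), Grap2 (0.0936) and Icos (0.101). Vsir was nearest to Arfip1 (0.0402), Mfsd7b (0.0410) and Lyn (0.0503), and Icosl to Slco3a1, Rogdi and Gpr137b (0.0569 to 0.0578). Nectin2 was nearest to Myl12a (0.0786), Entpd1 (0.0954) and Abca1 (0.0983). Cd274 had no gene as near, with Zfp36l1 at 0.177, 1700017B05Rik at 0.209 and Traj7 at 0.210. The distance is not scaled by a gene's own spread. That of Cd274 was larger than in 96.6% of the tested genes, so its distances cannot be set against those of the other members. Traj7, a T cell receptor segment gene, stood at 0 to 2.73 FPKM and did not pass (adjusted p = 0.061, limma).

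The receptors that read these ligands were measured in the same libraries. Of 14 tested receptors and binding partners, 8 were higher in dLAM and 2 lower, against 19.9% and 10.6% of all tested genes. Their median log2 fold change was 1.18, and 4 of the 14 passed the low-value filter through dLAM only. Pdcd1, the PD-1 receptor, stood at 17.5, 10.4 and 16.4 FPKM in dLAM and at 0.303, 0.774 and 1.40 FPKM in monocyte-macrophages (log2 fold change 3.12 ± 0.27 SE, adjusted p = 0.00019, limma). Tigit stood at 21.7, 17.0 and 21.2 FPKM in dLAM and at 0.228, 3.03 and 2.38 FPKM in monocyte-macrophages (3.03 ± 0.41 SE, adjusted p = 0.0014, limma). For both genes every dLAM value was far above every monocyte-macrophage value. Ctla4, the inhibitory receptor of Cd80 and Cd86, stood at 7.09, 8.49 and 8.16 FPKM in dLAM and at 0.0758, 0.812 and 0.264 FPKM in monocyte-macrophages, and Cd28, the activating one, at 3.41, 3.23 and 3.40 FPKM in dLAM and at 0.118, 0.649 and 0.839 FPKM in monocyte-macrophages. Their log2 fold changes were 2.72 and 1.53. Icos (2.52), Cd226 (1.93) and Cd96 (1.63) were higher too. These are known as T cell and natural killer cell receptors, Icos, Ctla4 and Cd28 are also on the T cell marker list, and the whole of that list and the tested natural killer cell genes moved with them; their part in the receptor values was not tested.

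Among partners that are not T cell receptors, Rgmb, which binds PD-L2, was higher in dLAM, with 6.37, 5.77 and 4.01 FPKM there and 2.86, 2.67 and 2.16 FPKM in monocyte-macrophages (log2 fold change 0.83). Ceacam1, reported as a TIM-3 partner, was lower in dLAM, with 5.76, 5.06 and 5.51 FPKM there and 19.2, 20.4 and 23.1 FPKM in monocyte-macrophages (-1.76, adjusted p = 4.9e-05, limma). P4hb, a disulfide isomerase that binds galectin-9 on T cells, was also lower (-0.52). Selplg (0.18), a binding partner of VISTA, Ptdss1 (0.13), which makes the phosphatidylserine that TIM-3 binds, and Hmgb1 (-0.29), a nuclear protein bound by TIM-3, did not pass.

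**Figure D5:**
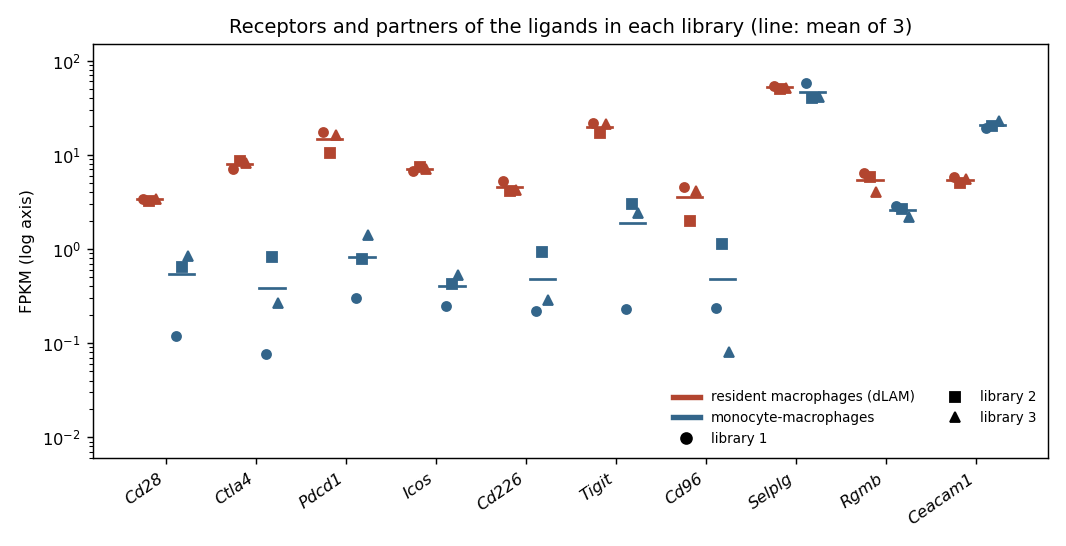
FPKM on a log axis of receptors and binding partners in each library, with dLAM in red left of monocyte-macrophages in blue and the line at the mean of 3. The T cell receptors Cd28, Ctla4, Pdcd1, Icos, Cd226 and Tigit have all red points above all blue points, Ceacam1 has all red points below, and Selplg overlaps.

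A further list of B7 and butyrophilin genes and related receptors was mostly scarce. Only 2 of its 11 genes in the table reached the test, the receptors Btla and Tnfrsf14, which bind each other. Neither is a B7 or butyrophilin gene, and neither passed (log2 fold changes 0.44 and 0.46, adjusted p = 0.072 and 0.086, limma). Over the 6 libraries Btla stood at 4.19 to 8.49 FPKM and Tnfrsf14 at 14.0 to 28.5 FPKM. Vtcn1, the B7-H4 gene, was listed at 0 in every library. Cd276, the B7-H3 gene, did not exceed 1.22 FPKM.

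Of 26 other tested costimulation and checkpoint genes of antigen-presenting cells, 15 were higher in dLAM, 4 were lower and 7 did not pass. Over all tested genes 19.9% were called higher and 10.6% lower. The 26 genes had a median log2 fold change of 0.78, and 6 of them passed the low-value filter through dLAM only. Slamf7, a receptor of the SLAM family, had the highest log2 fold change of FPKM + 1 among these (2.82). Adding 1 FPKM draws low values together, so this order need not be that of the ratios of means. The mean of Slamf7 was 15.8 ± 2.73 FPKM in dLAM and 1.40 ± 0.492 FPKM in monocyte-macrophages (SD, n = 3 each). Arg1, which consumes arginine, stood at 525, 271 and 428 FPKM in dLAM and at 79.5, 62.2 and 142 FPKM in monocyte-macrophages (2.13). Both genes had all dLAM values above the others. Tnfsf8 (2.07), the CD30 ligand, and Tnfsf4 (1.46), the OX40 ligand, were higher, and Tnfsf4 was listed at 0 in monocyte-macrophage libraries 2 and 3. Cd40 (1.10), Tnfsf9 (1.01) and Icam1 (0.83) were higher as well. Cd40 and Il4i1 (0.53), another of the higher genes, are also on the mature dendritic cell list. The part of other cell types in these values was not tested. The 4 lower genes were Lgals3 (-0.91), Pirb (-0.85), Cd244 (-0.67) and Cd47 (-0.41).

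All 5 tested genes of a list of nectins, nectin-like genes and their partners were higher in dLAM, against 19.9% of all tested genes. Of the 5 list genes, 1 had passed the filter through dLAM only, and the other 5 of the list were not tested. The 5 were Nectin1 (1.69), Nectin4 (0.57) and the nectin-like Cadm1 (1.25), with Cd96 (1.63) and Afdn (0.65), which are not nectins. Cd96 was already counted among the receptors above, and Cadm1 is also on the conventional dendritic cell list. Nectin2, described above, was higher as well. Among galectins and TIM genes, Timd4 (2.85), a phosphatidylserine receptor of resident macrophages, and Lgals3bp (1.76) were higher, Lgals3 was lower (-0.91), and Lgals1 (0.42) and Lgals8 (-0.11) did not pass. Timd4 was listed at 0 in all monocyte-macrophage libraries, so it passed the filter through dLAM only and its log2 value depends on the pseudocount; it stood at 5.51, 7.14 and 6.08 FPKM in dLAM.

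Genes known to regulate PD-L1, PD-L2, Cd80 or Cd86 gave a mixed picture. Of 23 tested, 9 were higher in dLAM, 2 were lower and 12 did not pass, with a median log2 fold change of 0.38. Among all tested genes 19.9% were called higher and 10.6% lower. The transcription factors Irf4 (1.98), Relb (1.70), Batf3 (1.62) and Myc (1.48) had the largest log2 fold changes of FPKM + 1. Irf4 stood at 15.0, 19.0 and 14.7 FPKM in dLAM and at 4.35, 3.38 and 2.49 FPKM in monocyte-macrophages, with no overlap. Cmtm4 (0.87), Nfkb2 (0.78), Jak2 (0.55), Il4ra (0.53) and Irf8 (0.46) were higher too, Cmtm4 having passed the filter through dLAM only, and Cd44 (-0.95) was lower. Of the interferon gamma pathway, Jak2 passed, while Irf1 (0.47, adjusted p = 0.057, limma), Ifngr1 (0.20) and Ifngr2 (-0.09) did not. Cmtm6, which keeps PD-L1 at the cell surface, stood at 71.6, 66.1 and 66.4 FPKM in dLAM and at 67.6, 70.5 and 68.2 FPKM in monocyte-macrophages (log2 fold change -0.02). Relb is also on the list for mature dendritic cells, and Irf4 and Batf3 are on that for conventional dendritic cells.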

How the data were processed

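RNA was measured by bulk RNA-seq in 3 dLAM and 3 monocyte-macrophage libraries from sorted cells of mouse cerebrospinal fluid, sequenced as read pairs of 150 bp per the labels' protocols. The sample titles gave the groups and replicate numbers. The authors deposited gene FPKM in 1 table. Per the submitters' processing notes, FastQC, HISAT2 and featureCounts were used with build mm10; the sources used here do not give versions, strand handling, gene lengths or the treatment of reads that map to several places. A count model does not suit FPKM and was not applied. Depth was inferred from the steps that 1 read makes in the deposited FPKM, with exon lengths of GENCODE M21, for which 32731 symbols matched 1 gene. Of the values under 20 reads, 40.5% to 44.2% were whole numbers within 0.02 reads in a library, too few to recover counts, and fragment numbers cover counting precision only.

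Deposited FPKM values entered limma 3.58.1 (R 4.3.3) as log2(FPKM + 1), in a model of 1 group term whose variances were moderated by empirical Bayes along their trend with the mean. Genes with at least 1 FPKM in at least 3 libraries were tested, and p-values were adjusted by Benjamini-Hochberg. The fit was checked on simulated data. Ratios of paired genes used FPKM with no pseudocount and a two-sided exact permutation test (scipy 1.17.1). The members, gene lists and marker lists were chosen with earlier results of these data known. Named genes were the members, the receptors that reached 1 FPKM in any library, and, of each list, up to 4 with the largest absolute log2 fold change among those called; all others were named after their values were seen, and some genes of the lists are not reported here. Alternatives changed the pseudocount, the filter, the scaling (median of ratios, quantile, TPM), the variance trend, a replicate block, a term for Y-linked RNA and the libraries included. Promoter sequences came from RefSeq (GRCm38.p6). Columns left unused numbered 0.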

Additional observations from a re-analysis of the deposited data

How the results depend on the processing

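Across 16 alternatives Pdcd1lg2, Icosl and Vsir kept their direction and their call, as did Nectin2 in the 15 in which it was tested (a filter at 5 FPKM leaves out Nectin2 and Pvr), and no member that was called changed sign. Cd80, Lgals9 and Pvr, whose log2 fold changes lay near 0, changed sign under some alternatives without a call. Cd274 lost its call in 6. The number of members higher in dLAM ranged from 3 to 6 with 1 library left out, and 1 was lower each time. With a term for Y-linked RNA 5 members were higher, Cd86 among them (adjusted p = 0.010, limma), and 1 was lower. Over all genes, 1247 were higher with a filter at 5 FPKM, 1480 were higher and 780 lower among the 4 libraries low in Y-linked RNA (an alternative chosen after seeing the data), and between 780 and 1220 were lower with 1 library left out, each fit having fewer genes or libraries. The log2 difference of the ratio of Pdcd1lg2 to Cd274 was 1.10, and that of Nectin2 to Pvr 0.93, with 1 FPKM added to each value, which draws low values together. Of all calls, 65.1% were higher in dLAM as deposited, 55.3% with median-of-ratios scaling, 51.4% with quantile normalization and 69% on the TPM scale; over all genes the median log2 fold change was 0.06, -0.01, -0.05 and 0.10 in that order, so quantile normalization moved it by over 0.1.

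Deviations from the group means correlated at 0.19, -0.15 and -0.09 between the libraries of number 1, 2 and 3. Libraries of unlike number were not compared, so whether the replicate numbers pair the libraries cannot be told. With a replicate block, 3 members were higher, 1860 genes were higher and 999 lower, and Cd274 had an adjusted p of 0.064 (limma). Counting precision is lowest for Pdcd1lg2 and Nectin2 in monocyte-macrophages, where their low level leaves few fragments behind each value.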
